A study of Homo sapiens with 2 samples.

Results

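Transcripts of 50 genes encoding the proteasome and the proteins that build and regulate it were measured by bulk RNA-seq in RKO, an established human colorectal carcinoma line. One culture had received siRNA against HNRNPM, an RNA-binding splicing regulator, and the other a control siRNA, and each gave 1 library. The control library is labelled wild type and the other HNRNPM knockdown. Both cultures belong to the same line, were grown in serum-supplemented medium and received siRNA, so the siRNA target is the labelled difference. Neither the siRNA sequences nor the hours between transfection and harvest are stated in the labels.

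The 50 genes were taken by symbol from a table of 54261 features. They are the numbered PSMA to PSMG genes together with ADRM1 and POMP, and pseudogenes were left out. They comprise 14 genes of the 20S core, 18 of the 19S cap, 3 immunoproteasome subunits, 8 assembly chaperones, 5 activators or regulators and 2 genes known from testis or thymus. A gene was called measured when it reached 1 CPM, a count per 1e+06 reads after scaling, in at least 1 library. This held for 45 of the 50, among 12925 measured features in all.

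The proteasome is the large protease that degrades proteins tagged with ubiquitin. Its barrel, the 20S core, is built from outer rings of alpha subunits (PSMA genes) and inner rings of beta subunits (PSMB genes). PSMB5, PSMB6 and PSMB7 encode the cutting subunits of the ordinary core. The 19S cap sits on the barrel. Its base holds the ATPases (PSMC genes) that unfold the substrate, and its lid removes ubiquitin. In cells exposed to interferon, PSMB8, PSMB9 and PSMB10 can replace the ordinary cutting subunits to form the immunoproteasome, which shapes the peptides shown on HLA class I.

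Reads counted in genes came to 13056118 for siHNRNPM and 19931360 for the control. HNRNPM itself had 1042 reads (79.6 CPM) after its knockdown and 2870 (144 CPM) in the control. This is 55.2% of the control level, with a 95% counting interval from 51.3% to 59.2%. The direction goes with the library's label, and the gene was reduced rather than absent. Of the 7 epithelial markers 4 were measured, and they differed in direction. KRT8 had 450 reads with siHNRNPM and 547 in the control, a log2 ratio of 0.32 (0.14 to 0.50), and EPCAM had 0.36 (0.04 to 0.68). CDX2 had 106 and 212 reads (-0.40, -0.75 to -0.05), and KRT18 had 0.06 (-0.12 to 0.24). KRT19, VIL1 and CDH1 had at most 10 reads. The summed level of all 7 was 87.1 CPM with siHNRNPM and 79.0 in the control. The haematopoietic markers PTPRC, CD3E, CD14 and LYZ and the endothelial markers PECAM1 and VWF had at most 2 reads. Of the fibroblast markers COL1A1 had 21 and 13 reads, COL1A2 had 14 and 8, and DCN had 0. The part of marker levels in the results was not tested. Intervals here cover counting error only, since reads copied by PCR are not independent molecules and variation between cultures was not measured. With 1 library per group no difference has a replicate check, and no p-value is given.

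RefSeq promoter windows, from 250 bases before to 50 after the annotated start (GRCh38.p14), were found for 44 of the 50 genes. The windows of 4 genes are shown. PSMB5 and PSMD14 were taken because their ratios were among the higher ones, and PSMB10 as the only immunoproteasome gene with reads. PSMD3 was taken because it holds 2 matches to the antioxidant response element core. PSMD9 also holds 2 and is not shown. The log2 ratio was 0.07 for PSMD3 and -0.20 for PSMD9. Capitals mark CCAAT, the letters bound by NF-Y, and TGACNNNGC, the core recognised by NFE2L1 and NFE2L2, on either strand.
PSMB5, chr14:23035171-23035470, minus strand: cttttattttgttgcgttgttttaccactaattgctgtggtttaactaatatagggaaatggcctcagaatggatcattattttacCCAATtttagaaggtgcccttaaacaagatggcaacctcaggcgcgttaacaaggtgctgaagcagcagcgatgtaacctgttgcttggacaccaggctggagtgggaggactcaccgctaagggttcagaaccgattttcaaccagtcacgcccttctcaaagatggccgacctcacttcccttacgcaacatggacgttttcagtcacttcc
PSMB10, chr16:67936801-67937100, minus strand: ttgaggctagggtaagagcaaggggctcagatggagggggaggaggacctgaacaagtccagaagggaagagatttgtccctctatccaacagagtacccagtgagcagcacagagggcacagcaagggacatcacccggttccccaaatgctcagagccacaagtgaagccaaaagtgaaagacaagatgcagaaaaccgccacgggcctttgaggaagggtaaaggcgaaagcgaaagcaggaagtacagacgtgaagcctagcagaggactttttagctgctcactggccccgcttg
PSMD14, chr2:161308175-161308474, plus strand: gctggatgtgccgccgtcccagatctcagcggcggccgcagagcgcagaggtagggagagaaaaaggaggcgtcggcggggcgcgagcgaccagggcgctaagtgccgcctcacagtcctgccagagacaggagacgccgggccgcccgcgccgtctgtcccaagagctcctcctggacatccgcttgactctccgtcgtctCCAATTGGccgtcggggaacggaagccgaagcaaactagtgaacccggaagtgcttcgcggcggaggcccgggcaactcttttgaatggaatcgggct
PSMD3, chr17:39980557-39980856, plus strand: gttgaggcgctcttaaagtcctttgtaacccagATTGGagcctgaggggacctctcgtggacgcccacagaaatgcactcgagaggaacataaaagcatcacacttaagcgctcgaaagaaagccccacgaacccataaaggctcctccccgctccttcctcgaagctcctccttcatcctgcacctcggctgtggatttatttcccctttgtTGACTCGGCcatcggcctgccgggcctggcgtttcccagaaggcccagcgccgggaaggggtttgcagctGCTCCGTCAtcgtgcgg
PSMB5 holds 1 CCAAT. PSMD14 holds 1 CCAAT on each strand, overlapping in CCAATTGG. PSMD3 holds 1 CCAAT and 2 TGACNNNGC, and the PSMB10 window holds neither motif. PSMB3, PSMD10 and PSMD11 also had windows and higher ratios than PSMD14, and are not shown. Their windows hold 2, 1 and 0 CCAAT, and of these genes only PSMB3 holds TGACNNNGC, with 1 match. PSMA7, PSMB1, PSMB6, PSMB7, PSMD4 and PSMG3 had no entry in the table. Each motif was counted on both strands with 1 window per gene. TGACNNNGC was in 14 of the 44 windows (31.8%), against 13.6% of all 27305 windows of that length and 15.2% of the 9091 windows of measured genes. The ETS-type letters CCGGAAG were also in 14 windows (31.8%), against 10.7% of all windows and 20.2% of those of measured genes. CCAAT was in 20 windows (45.5%), against 35.7% and 36.9%. The GC box GGGCGG was in 29 (65.9%), against 44.6% and 71.5%, and the E-box CACGTG in 3 (6.82%), against 7.43% and 10.3%. Among the measured members with a window, the 12 with TGACNNNGC had a median log2 ratio of 0.02 and the 27 without it 0.03. The 18 with CCAAT had a median of 0.05 and the 21 without it 0.00. A match describes letters in the window and was not tested as a binding site.

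The proteasome genes were nearly level between the libraries. Their summed reads came to 5938 CPM with siHNRNPM and 5959 CPM in the control, a log2 ratio of 0.00 (-0.02 to 0.01), which was -0.01 (-0.03 to 0.00) with DESeq2 size factors and 0.03 (0.01 to 0.04) with upper-quartile scaling. In bulk RNA, fewer cells expressing a gene and less RNA per cell cannot be told apart. None of the 45 measured genes was 2-fold higher or lower, where 2.45% and 1.49% of all measured genes were. The median log2 ratio was 0.03, with quartiles of -0.07 and 0.11, beside a median of -0.01 and quartiles of -0.21 and 0.18 for all measured genes. Of the 45 genes, 36 lay inside the middle 50% of all measured genes.

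Smaller shifts were called when the counting interval excluded a ratio of 1. The interval lay above 1 for 11 genes (24.4%), where it did for 22.0% of all measured genes, and below 1 for 7 (15.6%), where it did for 26.1%. For 27 genes it spanned 1. Most proteasome genes drew many reads, so their intervals are narrow. A mean of at least 50 CPM was reached by 36 of them, of which 11 lay above and 5 below, beside 27.4% and 36.3% of the 4832 features at that level. At that level 0.166% of features were 2-fold higher and 0.0414% 2-fold lower, and no proteasome gene was. The split of 11 and 7 depended on the scaling and became 16 and 3 with upper-quartile scaling. That scaling raised the ratio of every gene by 0.03 in log2. The shares over all measured genes were not computed with it, so 16 and 3 have no background beside them. With that scaling the intervals of PSMA4, PSMD9, PSME3 and PSME4 no longer lay below 1. Outside the middle 50% of all measured genes lay PSMB7, PSMC1, PSMG3 and PSMG4 on the lower side and PSMB3, PSMB5, PSMD4, PSMD11 and PSMD10 on the upper side.

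**Figure D1:**
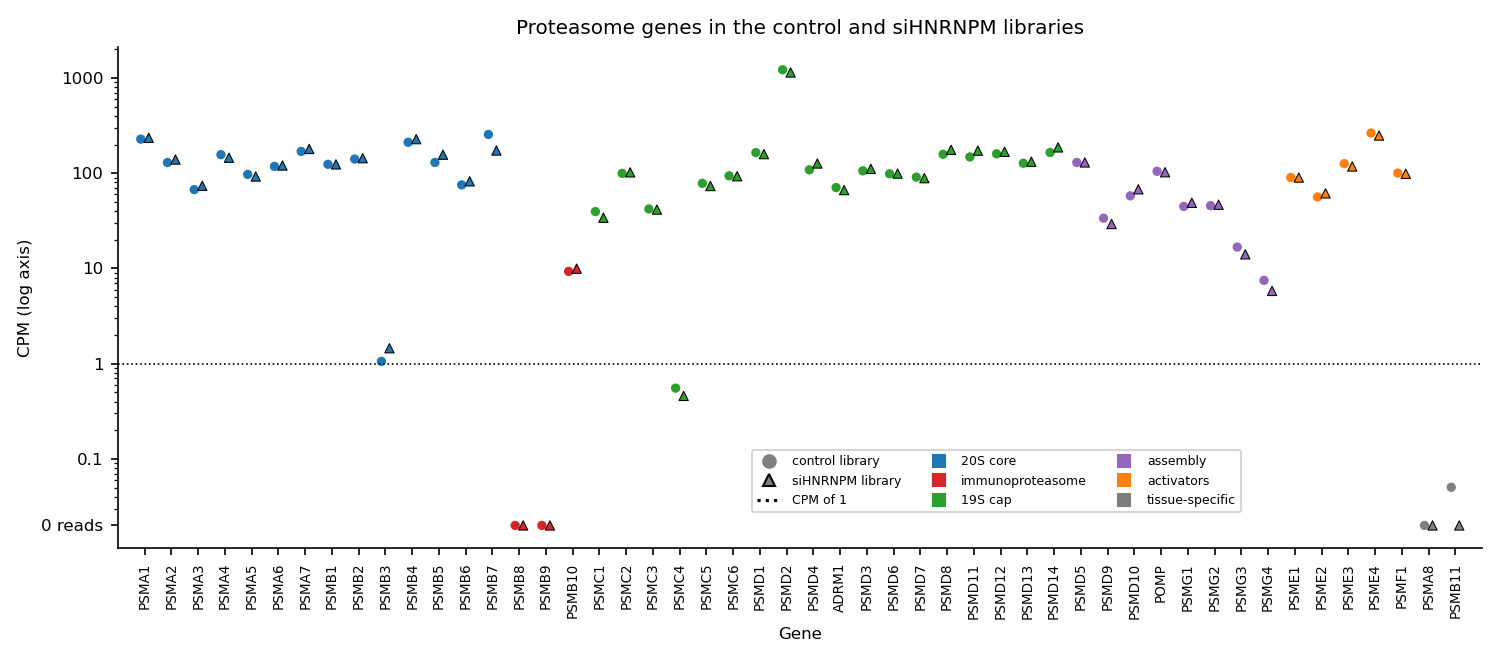
CPM (log axis) of each of the 50 proteasome genes in the control library (circles) and the siHNRNPM library (triangles), coloured by class, with a dotted line at 1 CPM. Most pairs of points nearly coincide, PSMD2 has the highest CPM at 1219 and 1143, and PSMB8 and PSMB9 have 0 reads.

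**Figure D2:**
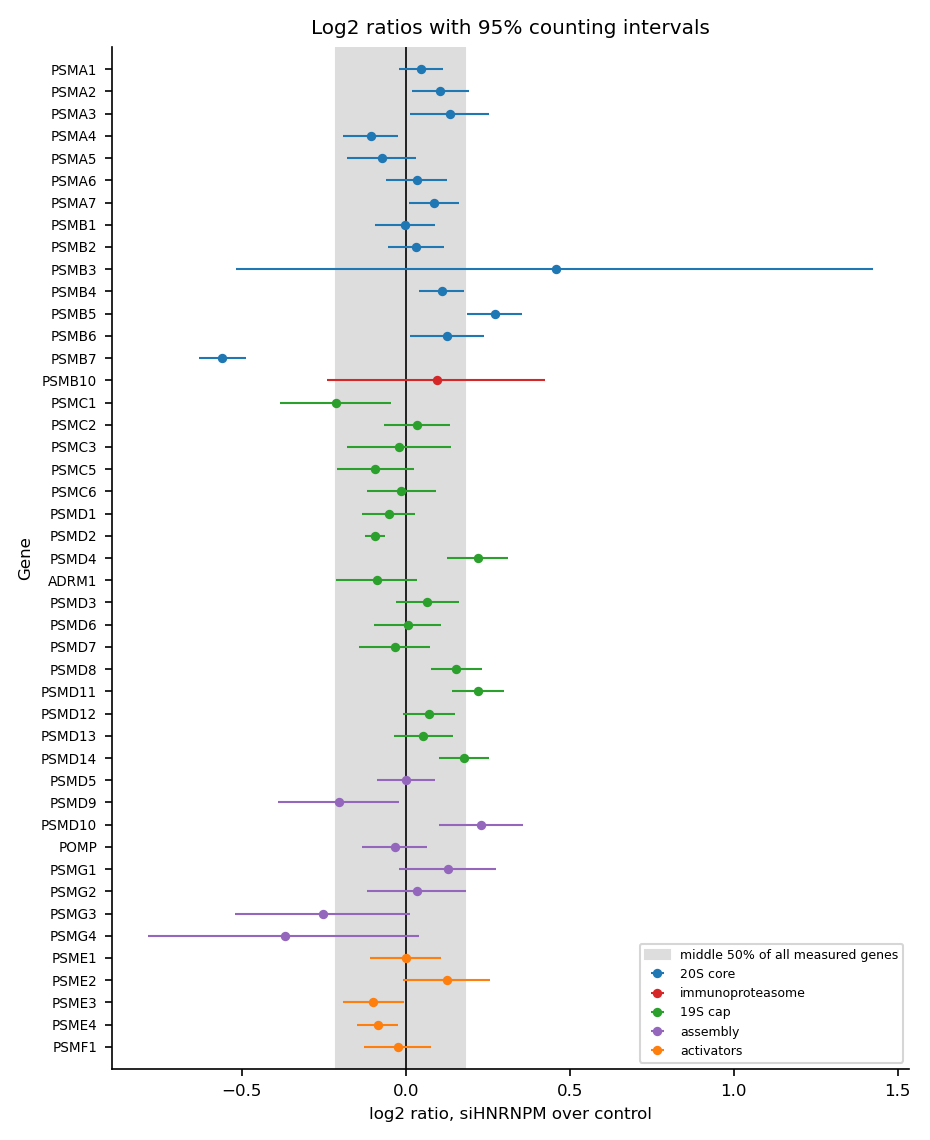
Log2 ratio of siHNRNPM over control for the 45 measured genes with 95% counting intervals (bars), coloured by class; the grey band spans the quartiles of all measured genes (-0.21 to 0.18). PSMB7 lies at -0.56, outside the band, and 36 genes lie inside it.

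In the alpha rings, which gate entry to the barrel, the 7 genes PSMA1 to PSMA7 ranged in log2 ratio from -0.11 to 0.13. PSMA1 had 3080 reads (235 CPM) with siHNRNPM and 4530 (228 CPM) in the control. PSMA3 had 73.7 and 67.2 CPM, a log2 ratio of 0.13 (0.01 to 0.25), and was the highest of the ring. PSMA4 had 145 and 157 CPM, a log2 ratio of -0.11 (-0.19 to -0.02), and was the lowest. The ring as a sum had a log2 ratio of 0.03 (0.00 to 0.06), or 0.04 (0.01 to 0.07) with total counts and 0.06 (0.03 to 0.10) with upper-quartile scaling. The genes of the ring with intervals above 1 were PSMA2 (0.11), PSMA3 and PSMA7 (0.09). PSMA1, PSMA2 and PSMA6 each overlap a protein-coding gene on the same strand, in 814, 781 and 919 exonic bases. The part of these overlaps in the counts was not tested.

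In the beta rings, the structural genes PSMB1, PSMB2 and PSMB4 had log2 ratios of 0.00, 0.03 and 0.11. PSMB4, at 228 and 211 CPM in the siHNRNPM and control libraries, had an interval above 1 (0.04 to 0.18). PSMB3 had 19 and 21 reads, or 1.45 and 1.06 CPM, and its log2 ratio of 0.46 had an interval from -0.52 to 1.43. PSMB3 encodes an obligatory subunit of every 20S core. Per kilobase of its longest transcript and per 1e+06 reads (RPKM) it had 1.88 and 1.37, where PSMB2, the next lowest of these 4 genes, had 34.1 and 33.4. GENCODE lists 6 transcripts of PSMB3 outside the primary assembly, and their part in the low count was not tested. Such transcripts are also listed for PSMB1 (1), PSME1 (10) and PSME2 (18), and these genes had at least 804 reads in each library.

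The cutting subunits of the ordinary core differed in direction. PSMB7, which encodes the trypsin-like subunit, had 2266 reads (173 CPM) with siHNRNPM and 5072 (255 CPM) in the control. That is 67.9% of the control level (64.6% to 71.3%), a log2 ratio of -0.56 (-0.63 to -0.49) or 1.47-fold lower. It was the lowest ratio of the 45 proteasome genes. Of the 2451 genes that averaged at least 100 CPM, 54 (2.20%) had a ratio at or below it, and the central 95% of them ran from -0.53 to 0.43.

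PSMB5, encoding the chymotrypsin-like subunit that is the main target of bortezomib, had 2047 reads (156 CPM) and 2577 (130 CPM). Its log2 ratio was 0.27 (0.19 to 0.36), the highest of the proteasome genes with more than 100 CPM. PSMB6, encoding the caspase-like subunit, had 1076 reads (82.2 CPM) and 1498 (75.3 CPM), a log2 ratio of 0.13 (0.01 to 0.24). PSMB7 was therefore lower while the other two cutting subunit genes were higher. Ratios taken within a library are free of its scaling. PSMB7 had 1.97 reads per PSMB5 read in the control library and 1.11 in the siHNRNPM library, a log2 difference of -0.83 (-0.94 to -0.72). Against PSMB6 it went from 3.39 to 2.11, a log2 difference of -0.68 (-0.82 to -0.55). PSMB5 over PSMB6 differed by 0.15 (0.00 to 0.29). These pairs were not among the planned ratios. PSMB7 had the lowest ratio of the measured proteasome genes and PSMB5 the highest of those with more than 100 CPM. The difference between PSMB7 and PSMB5 therefore follows from that choice.

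PSMB7 lies on chromosome 9 from 124353466 to 124415444 on the minus strand of GRCh38 (GENCODE 29, ENSG00000136930.12). No exon of it overlaps another annotated gene and no transcript of it is listed outside the primary assembly. Its pseudogene PSMB7P1 had 0 reads in both libraries. The 7-base sequence GTGAGAA is not in its annotated 3′ UTR. The labels give no source for this sequence, and its search was not planned. Measured genes with those letters in the 3′ UTR had a median log2 ratio of -0.14, and those without them -0.01. That comparison took no account of 3′ UTR length, and the part of the sequence in any ratio was not tested. Among measured proteasome genes only PSMG4 holds that sequence there, 1 of 45 (2.22%) beside 14.7% of measured genes with an annotated 3′ UTR. These shares also took no account of 3′ UTR length. That of PSMG4, at 4226 bases, is the longest of the 45. Without PSMB7, the summed log2 ratio of the 20S core was 0.06 (0.04 to 0.09), where it was -0.01 (-0.03 to 0.02) with it.

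**Figure D3:**
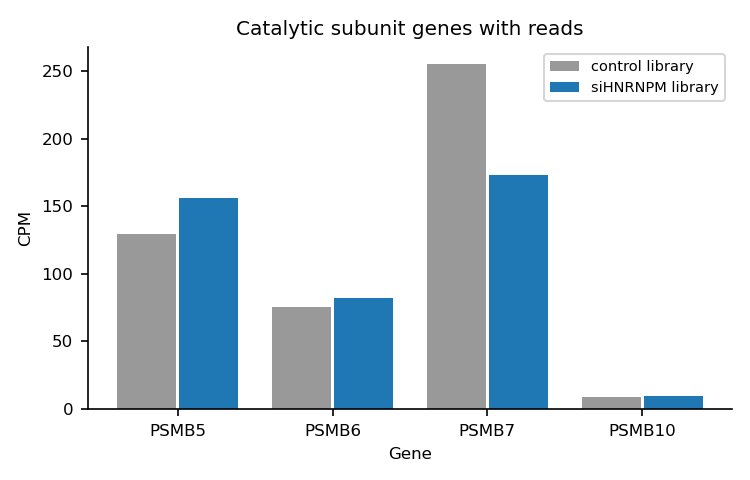
CPM of the catalytic subunit genes with reads, in the control library (grey bars) and the siHNRNPM library (blue bars); bars start at 0 and there are no replicates. PSMB7 is lower in the siHNRNPM library (173 against 255 CPM), PSMB5 and PSMB6 are higher, and PSMB10 has 9.93 and 9.30 CPM.

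The immunoproteasome could be measured through PSMB10 only. In 644 exonic bases PSMB10 overlaps AC040162.1, a protein-coding gene on the same strand. The part of this overlap in the PSMB10 count was not tested. PSMB10, the counterpart of PSMB7, had 130 reads (9.93 CPM) with siHNRNPM and 185 (9.30 CPM) in the control. Its log2 ratio was 0.09 (-0.24 to 0.43), so no difference was detectable at this depth. Per PSMB7 read it had 0.0574 reads in the siHNRNPM library and 0.0365 in the control library, a log2 difference of 0.65 (0.31 to 0.99). Per PSMB6 read the 2 libraries were close, at 0.121 and 0.123. Per PSMB5 read it had 0.0635 and 0.0718, a log2 difference of -0.18 (-0.52 to 0.17). The interval thus left out 0 against PSMB7 alone of the 3 ordinary subunit genes. Of these 3 ratios only that to PSMB7 was planned.

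PSMB8, the counterpart of PSMB5, and PSMB9, the counterpart of PSMB6, had 0 reads in both libraries. At these depths a count of 0 allows up to 3 reads, which is 0.229 CPM with siHNRNPM and 0.151 CPM for the control. Both genes lie next to each other in the HLA region of chromosome 6, and GENCODE lists 35 transcripts of PSMB8 and 42 of PSMB9 outside the primary assembly. TAP1 and TAP2, their neighbours, also had 0 reads, as did RPS18, a ribosomal protein gene of that region that every cell uses. Over the table, 51.1% of the 1015 protein-coding genes with such a copy had 0 reads in both libraries, against 25.3% of the 17782 without one. Whether the 0 of PSMB8 and PSMB9 reflects such copies was not tested, and no ratio to PSMB5 or PSMB6 is given for them. IRF1 and NLRC5 encode regulators that drive these genes in an interferon response. IRF1 had 7.34 CPM with siHNRNPM and 8.60 in the control, NLRC5 had 14.4 and 14.5 CPM, and both intervals spanned 1.

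In the 19S cap, the lid and the base lay on different sides of 1. All 8 lid genes were measured and 7 had a positive log2 ratio, 6 with DESeq2 size factors, where 6233 of all 12925 measured genes and 2188 of the 4832 with at least 50 CPM did. The summed log2 ratio was 0.11 (0.08 to 0.14). PSMD11, a scaffold of the lid, had 173 and 148 CPM in the siHNRNPM and control libraries, a log2 ratio of 0.22 (0.14 to 0.30). PSMD14, the deubiquitinase that cuts the ubiquitin chain off the substrate, had 187 and 165 CPM (0.18, 0.10 to 0.25). PSMD8 had 176 and 158 CPM (0.15, 0.08 to 0.23). PSMD3, PSMD6, PSMD7, PSMD12 and PSMD13 had intervals that spanned 1, with log2 ratios from -0.03 to 0.07. PSMD11 and PSMD14 overlap an antisense gene in exons, and the use of strand was not given in the sources used here.

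The base was taken here as the ATPases and the scaffolds PSMD1 and PSMD2, and the ubiquitin receptors PSMD4 and ADRM1 were kept apart. Of the 7 measured base genes, 6 had a negative log2 ratio, or 4 with upper-quartile scaling. Over all measured genes 6692 of 12925 did, and 2644 of the 4832 with at least 50 CPM. Its summed log2 ratio was -0.08 (-0.10 to -0.05). PSMD2, which docks ubiquitin-carrying shuttles, had 14953 reads (1143 CPM) and 24235 (1219 CPM), a log2 ratio of -0.09 (-0.12 to -0.06). PSMD1 had 159 and 165 CPM (-0.05, -0.13 to 0.03). Without PSMD2, which holds most of the reads, the base had -0.04 (-0.09 to 0.00), or -0.05 (-0.10 to -0.01) with DESeq2 size factors. Lid reads per base read were 0.689 in the siHNRNPM library and 0.607 in the control library, a log2 difference of 0.18 (0.15 to 0.22), and 0.15 (0.10 to 0.20) without PSMD2. The division of the cap into base and lid for this comparison was made after the values were seen. It left out the ubiquitin receptors, whose summed log2 ratio was 0.11 (0.03 to 0.18), with PSMD4 at 0.22 and ADRM1 at -0.09. Counting them with the base would raise the sum of the base.

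Among the ATPases, PSMC2, PSMC3, PSMC5 and PSMC6 had log2 ratios from -0.09 to 0.04 and all their intervals spanned 1. PSMC1 had 446 and 786 reads in the siHNRNPM and control libraries, a log2 ratio of -0.21 (-0.39 to -0.04). Its pseudogene PSMC1P1 had 181 and 380 reads, equal to 40.6% and 48.3% of the PSMC1 reads. PSMC1P1 had a log2 ratio of -0.47 (-0.73 to -0.21), and both added had -0.29 (-0.43 to -0.15). All these intervals lay below 1, while the size of the PSMC1 ratio is uncertain as far as the 2 share reads. PSMC1 also overlaps NRDE2 in 4671 exonic bases on the opposite strand. PSMC4 had 6 and 11 reads and did not reach 1 CPM. Like PSMB3, it encodes an obligatory subunit and has 6 transcripts listed outside the primary assembly.

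The ubiquitin receptors of the cap, PSMD4 and ADRM1, bind the chains on a substrate. PSMD4 had 126 and 109 CPM in the siHNRNPM and control libraries, a log2 ratio of 0.22 (0.13 to 0.31). ADRM1 had 66.5 and 70.7 CPM (-0.09, -0.21 to 0.03). No exon of PSMD4 overlaps another gene in the annotation, while ADRM1 overlaps LAMA5 and an antisense gene.

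**Figure D4:**
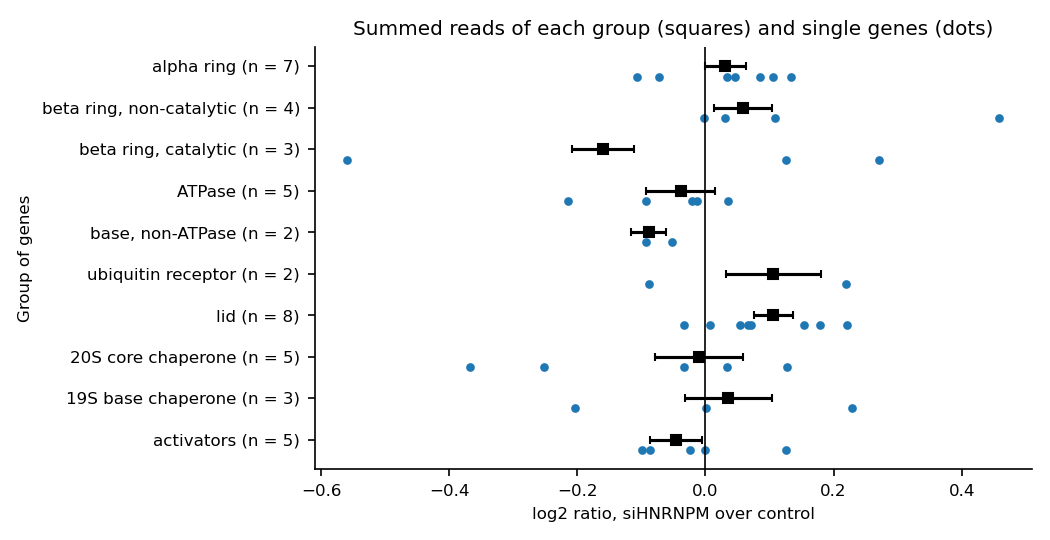
Summed reads of each structural group as a log2 ratio of siHNRNPM over control (black squares, with 95% counting intervals) and its single measured genes (blue dots); n is the number of measured genes. The lid lies above 0 at 0.11, the non-ATPase base below it at -0.09, and the catalytic beta group at -0.16, with PSMB7 at -0.56.

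Assembly chaperones guide the rings together and leave the finished particle, or are its first substrate. The 8 genes had a summed log2 ratio of 0.01 (-0.03 to 0.06). POMP, the maturation factor of the core, had 102 and 105 CPM in the siHNRNPM and control libraries, a log2 ratio of -0.03 (-0.13 to 0.07). PSMG1 and PSMG2, partners in alpha ring assembly, had 48.9 and 44.8 CPM (0.13, -0.02 to 0.28) and 46.7 and 45.6 CPM (0.03, -0.12 to 0.18). PSMG3 and PSMG4, the other pair, had the fewest reads of the chaperones, PSMG3 184 and 333 (14.1 and 16.7 CPM) and PSMG4 76 and 149 (5.81 and 7.49 CPM). Their log2 ratios of -0.25 (-0.52 to 0.01) and -0.37 (-0.79 to 0.04) had intervals that spanned 1.

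The chaperones of the 19S base did not share a direction. PSMD10, encoding gankyrin, had 67.8 and 57.8 CPM in the siHNRNPM and control libraries, a log2 ratio of 0.23 (0.10 to 0.36). PSMD5 was level at 129.7 CPM in both (0.00, -0.09 to 0.09). PSMD9 had 29.3 and 33.7 CPM (-0.20, -0.39 to -0.02), and its exons overlap WDR66 and 1 further protein-coding gene on the same strand.

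The activators bind the ends of the barrel in place of the cap. PSME1 and PSME2, the interferon-inducible subunits of the PA28 activator, had 90.1 and 90.1 CPM and 61.4 and 56.3 CPM. Their log2 ratios were 0.00 (-0.11 to 0.11) and 0.13 (-0.01 to 0.26). PSME3, the nuclear member of the family, had 118 and 126 CPM (-0.10, -0.19 to -0.01). PSME4, a large activator of the nucleus, had 249 and 264 CPM (-0.09, -0.15 to -0.02). PSMF1, encoding the regulator PI31, had 98.7 and 100.4 CPM (-0.02, -0.13 to 0.08). The group as a sum had a log2 ratio of -0.05 (-0.09 to -0.01), an interval that spanned 0 with total counts (-0.08 to 0.00) and with upper-quartile scaling (-0.05 to 0.03). PSMA8 and PSMB11, known from testis and thymus, had no reads and 1 read over both libraries.

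Per length of the longest GENCODE transcript, PSMD2 was the highest gene, at 331 and 353 RPKM in the siHNRNPM and control libraries, and PSMB7 ranked next in both, at 177 and 260. In the siHNRNPM library PSMB7 ranked 3 with the median transcript length and 4 with the longest coding transcript. The median of the 45 measured genes was 37.7 and 36.3 RPKM, which put PSMD2 at 8.79 and 9.74 times the median. Its partner scaffold PSMD1 was 6.95-fold and 7.14-fold lower. PSMB10 stood at 0.216 and 0.211 times the median and PSMB3 at 0.0498 and 0.0377 times. With the median transcript length these became 0.114 and 0.113 for PSMB10 and 0.0253 and 0.0196 for PSMB3. No transcript of PSMD2 is listed outside the primary assembly, and its pseudogene had 0 and 1 reads.

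Genes that work with the proteasome were given by a list of 27, all measured. Of these 9 (33.3%) had an interval above 1 and 8 (29.6%) below it, beside 22.0% and 26.1% of all measured genes and 27.4% and 36.3% of those with at least 50 CPM. The other 10 spanned 1, and the median log2 ratio was 0.01. The shuttle gene UBQLN4 had 65.9 and 82.2 CPM in the siHNRNPM and control libraries, a log2 ratio of -0.32 (-0.44 to -0.20). UBQLN1, of the same family, had 303 and 351 CPM (-0.21, -0.27 to -0.15). The shuttle gene RAD23B had a log2 ratio of -0.02 (-0.07 to 0.02). UBB and RPS27A, which encode ubiquitin, had log2 ratios of 0.07 and 0.13 with intervals above 1. SHFM1, which encodes the small cap subunit also named SEM1, had 0.10 (0.01 to 0.18). The deubiquitinases of the cap, USP14 and UCHL5, had -0.12 and -0.18 with intervals below 1.

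Regulators of proteasome transcription ranged in log2 ratio from -0.67 to 0.31. Of 17 genes, all measured, 3 (17.6%) had an interval above 1 and 3 (17.6%) below it, beside 22.0% and 26.1% of all measured genes, and the median log2 ratio was -0.08. NFE2L1, which drives subunit genes when the proteasome is overloaded, had 2929 reads (224 CPM) with siHNRNPM and 3595 (181 CPM) in the control, a log2 ratio of 0.31 (0.24 to 0.38). Its relative NFE2L2 had 541 and 1123 reads (-0.45, -0.60 to -0.30). The heat shock factor gene HSF2 had 438 and 1061 reads (-0.67, -0.84 to -0.51), and the ubiquitin ligase gene BTRC had 517 and 990 (-0.33, -0.49 to -0.18). NGLY1 and DDI2, which process the NFE2L1 protein, had -0.05 (-0.16 to 0.05) and -0.23 (-0.58 to 0.12).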

How the data were processed

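RNA-seq was deposited by the authors as whole-number read counts per gene symbol, not normalized. Per the submitters' processing notes HISAT2 2.0.4 and GRCh38 were used, in roles the notes do not give. Which counter and annotation produced the table, and how strand and multi-mapped reads were treated, is not given in the sources used here. Groups came from the treatment labels and columns from the titles.

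Counts were scaled with TMM (edgeR 4.0.16, R 4.3.3) to CPM. The log2 ratio of siHNRNPM over control used 0.5 for a count of 0, and its 95% interval is the exact Clopper-Pearson interval of the gene's reads. Ratios within a library used the exact conditional odds ratio interval for gene pairs and the sample odds ratio interval for groups of genes. A 2-fold call needed a log2 ratio of 1 and an interval without 1. With 1 library per group edgeR's quasi-likelihood test could not be fitted. The intervals were tried on simulated Poisson counts with the means and sizes of these libraries. Such counts hold counting error only, so the trial could not show how the intervals do with PCR copies or variation between cultures. Annotation was GENCODE 29, whose GRCh38 build is that of the labels, and promoters were RefSeq, GRCh38.p14. No protein sequences were used here, so the planned identities were not computed.

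Members and lists were chosen with earlier results of these data known. Every member is accounted for. By the rule for named genes, values are given for the catalytic subunits, for up to 6 members a class with the largest ratios whose interval left out 1, and for up to 4 of each further list. Some genes of the lists are counted but not reported here by name. Other genes were named for their role or place in a class, after their values were seen. Alternatives covered scaling, CPM minimum, thinning, interval level, fold and members kept.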

Additional observations from a re-analysis of the deposited data

How the results depend on the processing

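No paired analysis was possible because each group has 1 library, and none could be left out in turn for the same reason. Every log2 ratio shifted by 0.01 with total counts, -0.01 with DESeq2 1.42.0 size factors and 0.03 with upper-quartile scaling. Of 45 measured genes, 11 had an interval above 1 and 7 below it. With upper-quartile scaling these became 16 and 3. With a 99% interval they became 7 and 3, and 1 in place of 3 regulators lay above. The shares over all measured genes were not computed with upper-quartile scaling or the 99% interval. Among the 21 genes with neither an alternate copy nor an exon overlap, 8 (38.1%) lay above and 3 (14.3%) below. Over the 45 these shares were 24.4% and 15.6%. The median over all proteasome genes ranged from 0.01 to 0.07 over the alternatives. The median of the activators, -0.02, became 0.01 and that of the assembly genes, also -0.02, became 0.02 with upper-quartile scaling, and that of the assembly genes 0.06 without genes with an alternate copy or exon overlap. The median of the cap, 0.01, became 0.00 with DESeq2 size factors or without a CPM filter and -0.01 with the control library thinned, but 0.04 with upper-quartile scaling and 0.05 without genes with an alternate copy or exon overlap. With upper-quartile scaling, added after seeing the data for sums, the interval of the summed log2 ratio lay above 0 for the 20S core (0.03, 0.00 to 0.05), the 19S cap (0.03, 0.01 to 0.05) and the 19S base chaperones (0.07, 0.00 to 0.14). PSMD2 stood at 18.1 times the median RPKM of the control library and 15.9 times that of the siHNRNPM library when the median transcript length was used. With the longest coding transcript, tried after seeing the data, it stood at 7.65 and 7.56 times. HNRNPM stayed within its counting interval. No proteasome gene was called at 2-fold under the alternatives run, nor at 1.5-fold, where 646 of 12925 measured genes were higher and 589 lower. The depth limits PSMB3, PSMC4, PSMB10, PSMG3 and PSMG4, with at most 333 reads each in either library.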

Other observations

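The chromosome 9 neighbours of PSMB7 were looked at after its value was seen. Of 11 measured protein-coding genes within 1 megabase of it, 3 had a counting interval above a ratio of 1, 5 below it and 3 spanned it, where 22.0% of all measured genes lay above and 26.1% below. Their median log2 ratio was -0.06, with a range from -0.48 (DENND1A) to 0.35 (HSPA5). None of the 11 was as low as PSMB7 at -0.56. NEK6, which ends next to it, had -0.23 (-0.36 to -0.10).

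Pseudogenes of proteasome genes had 43 rows in the table. Of these 10 had a read and 4 were measured. PSME2P1, a pseudogene of PSME2, had 21 reads in the siHNRNPM library and 2 in the control library. The interval of its log2 ratio ran from 1.96 to 7.13, while PSME2 itself had 804 and 1120 reads. PSME2P1 was picked out of the 43 rows. It met the 1 CPM minimum through siHNRNPM alone (1.60 CPM, control 0.101 CPM). Passing on that side alone favours a ratio above 1, and the interval makes no allowance for either choice. The antisense gene PSMA3-AS1 had 666 and 990 reads (0.03, -0.11 to 0.17), next to 965 and 1336 for PSMA3.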
